A study of Mus musculus with 4 samples.

Results

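The fibroblast growth factor (FGF) module described here comprised the FGF ligand genes, their receptors and the feedback inhibitors of the pathway, read in muscle dissected from mouse embryos at E13.5, a stage counted in days of embryonic development. Members were all genes whose symbol in the array annotation was Fgf followed by a number, Fgfr1 to Fgfr4, Fgfrl1, Spry1 to Spry4, Spred1 to Spred3 or Dusp6. This rule found 35 of the 18194 genes named on the array, of which 22 were ligands, 5 receptors and 8 feedback inhibitors. Every Fgf plus number was counted as a ligand, including Fgf11 to Fgf14, which stay inside the cell and are not secreted ligands. They were read by 79 of the 34958 probe sets (groups of array probes) that carry a single gene symbol.

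The study hybridised 1 Affymetrix array for each of 4 groups: limb muscle of MyoD-/- embryos, limb muscle of wild-type (WT) embryos, back muscle of Myf5-/- embryos and back muscle of WT embryos. The labels give the strain as BALB/c, with the mutants as Myod null and Myf5 null on it, and no other allele or treatment. MyoD, encoded by Myod1, and Myf5 set cells on the path to muscle as transcription factors, and the series title names the role of muscle in motor neuron development. The number of embryos behind an array, and the parts of each gene that the mutant alleles lack, are unknown here. No group had a replicate, so no test over samples was possible, no p-value was computed, and every difference is between 2 single arrays.

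Myod1 had a signal of 688 in MyoD-null limb against 1438 in WT limb, and 2333 against 2870 in the back pair. A dimmer Myod1 probe set gave 92.1 in MyoD-null limb against 209 in WT limb. In the back pair it went the other way, at 204 against 147 in WT back. Myf5 had a signal of 583 in the Myf5-labelled back array against 508 in WT back, and 1019 in MyoD-null limb against 506 in WT limb. The probes may lie outside the deleted parts, in which case they check nothing, and because Myf5 was not lower there that array is called the Myf5-labelled back array throughout, and directions drawn from it rest on its label. Of 12 skeletal muscle markers, 12 reached a signal of 100 in each array, with summed signals of 47940 in MyoD-null limb and 75595 in WT limb, and of 97294 in the Myf5-labelled back array and 146138 in WT back. Of 10 cartilage markers, 9 reached 100 in the Myf5-labelled back array and 10 in each other array, so the pieces held cartilage too. The summed cartilage signals were 22467 in MyoD-null limb and 19348 in WT limb, and 6385 in the Myf5-labelled back array and 23283 in WT back. In such bulk pieces, fewer cells of a type and less RNA per cell cannot be told apart. The ratio of 3 prime to 5 prime signal of Gapdh, a sign of RNA and labelling quality, was 8.06 and 12.2 in the MyoD-null and WT limb arrays and 9.46 and 6.45 in the Myf5-labelled back array and WT back. Its part in the results below was not tested.

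Secreted FGFs bind receptor tyrosine kinases together with heparan sulfate, and the receptors pass the signal through adaptors and Ras to the ERK kinases. Active ERK signalling switches on its own brakes: Sprouty (Spry) and Spred proteins restrain the Ras to ERK steps, and Dusp6 is a phosphatase that removes the activating phosphates of ERK. In muscle, FGFs are known to keep cultured myoblasts dividing and to hold back their differentiation. Fgfr4 is known as a receptor of embryonic myoblasts, Fgf6 as a ligand made by muscle, and Fgfr3 as a receptor of growing cartilage, where Fgf18 is one of its ligands.

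Signals are linear intensities scaled to a common trimmed mean (a mean without the most extreme values), which leaves their medians unequal. Values under 100 were set to that floor for ratios and are taken as having no level, so a ratio against such a value is a bound. A gene was called when the ratio of 2 arrays was at least 2-fold with the brighter array at 200 or more. The signal of one gene's probes is not comparable with that of another gene's, so genes are compared across arrays and not with each other.

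The upstream sequences of Fgfr4, Fgf6 and Fgfr3 are shown because these members have known roles in muscle or cartilage and because Fgfr4 had a lower signal in both mutant-labelled arrays. MyoD and Myf5 bind the E-box, spelled CANNTG, which reads the same on both strands. The sequences are the 250 bases before a gene's start from RefSeq (GRCm38.p6), 5′ to 3′ on the gene's strand, with each E-box in capitals. The Fgfr4 window is chr13:55152568-55152817 (+), the Fgf6 window chr6:127015292-127015541 (+), and the Fgfr3 window, before the first of 2 listed starts, chr5:33721474-33721723 (+).
Fgfr4: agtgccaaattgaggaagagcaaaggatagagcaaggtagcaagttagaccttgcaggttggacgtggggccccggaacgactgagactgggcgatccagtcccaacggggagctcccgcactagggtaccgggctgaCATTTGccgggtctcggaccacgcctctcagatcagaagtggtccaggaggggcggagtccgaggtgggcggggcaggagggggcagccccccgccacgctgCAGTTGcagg
Fgf6: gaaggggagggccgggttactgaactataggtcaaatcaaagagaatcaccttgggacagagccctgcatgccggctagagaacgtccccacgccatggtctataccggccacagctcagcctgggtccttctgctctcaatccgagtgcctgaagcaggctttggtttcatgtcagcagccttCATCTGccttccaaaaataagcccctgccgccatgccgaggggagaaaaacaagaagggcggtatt
Fgfr3: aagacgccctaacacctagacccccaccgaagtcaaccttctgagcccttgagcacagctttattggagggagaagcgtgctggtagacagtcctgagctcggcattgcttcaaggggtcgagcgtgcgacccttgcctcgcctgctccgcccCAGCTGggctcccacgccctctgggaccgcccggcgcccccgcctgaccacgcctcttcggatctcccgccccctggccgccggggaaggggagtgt
The Fgfr4 window held 2 E-boxes and the windows of Fgf6 and Fgfr3 held 1 each. The window before the second Fgfr3 start held 0, which says only that these letters are not in that window. Of the 32851 windows of this length in the table, 66.2% held at least 1 E-box and 31.8% held 2 or more. Of the 33 windows listed for 26 of the members, 20 (60.6%) held 1 or more, a share near that of all windows. A match is a description of the sequence and not a binding site.

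All 5 receptor genes reached 200 in every array. Fgfr4, the receptor known from myoblasts, had a signal of 385 in MyoD-null limb against 553 in WT limb (log2 ratio -0.52), and 357 in the Myf5-labelled back array against 713 in WT back (-1.0). Both mutant-labelled arrays were thus below both WT arrays, and the back ratio lay just short of the 2-fold needed for a call. A second probe set of Fgfr4, whose name marks probes that can be shared between transcripts, gave 197 against 320 in the limb pair (-0.70) and 114 against 361 in the back pair (-1.67). Of the 3 dimmer ones, 1 went the other way in the limb pair, at 167 against a WT limb signal under the floor (0.74). Quantile normalization (-1.03) and loess (-1.02) put the back ratio of Fgfr4 past 2-fold, while the median over its probe sets, most of them near the floor, was -0.15. The summed muscle markers were also lower in both mutant-labelled arrays. So were those of liver, a tissue known to express Fgfr4, at 248 in MyoD-null limb against 622 in WT limb and 419 in the Myf5-labelled back array against 2652 in WT back. Of the 4 liver markers, 0 reached 100 in MyoD-null limb against 3 in WT limb, and 2 in the Myf5-labelled back array against 4 in WT back. Alb, serum albumin, was 177 in the Myf5-labelled back array against 609 in WT back (-1.78), and Afp, the fetal serum protein, was 4.52, under the floor, against 1651, at least 16.5-fold lower. In all, 6 of 13 marker lists were lower in sum in both pairs, the others being tendon, neurons, endothelium and macrophages. These sums include values under the floor. For neurons the limb sums were close, at 1075 against 1111, with 3 markers above 0 and 3 below. Endothelium was close too, at 2918 against 3018, with 2 above 0 and 2 below. The part of these tissues in the Fgfr4 values was not tested.

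Fgfr3 had a signal of 1091 in MyoD-null limb against 684 in WT limb (0.67), and 377 in the Myf5-labelled back array against 635 in WT back (-0.75). It was highest of the 4 arrays in MyoD-null limb and lowest in the Myf5-labelled back array, a span of 2.90-fold. Its other probe set was dim and reached 100 only in WT limb, at 154, where its limb ratio was -0.62. Among the cartilage markers, 9 of 10 were above 0 in the limb pair with a median log2 ratio of 0.18, and 9 of 10 were below 0 in the back pair with a median of -1.97. Col2a1, the main cartilage collagen, was 4173 against 3343 in the limb pair (0.32) and 1119 against 5495 in the back pair (-2.30), and Sox9, the factor that specifies cartilage, was 2078 against 1419 (0.55) and 304 against 1247 (-2.04). Other probe sets of Sox9 gave -0.78 and 0.52 in the limb pair and 0.88 and -0.48 in the back pair. In the probe sets that stand for the genes, most cartilage markers thus went in the directions of Fgfr3 in both pairs. The summed markers of muscle progenitors and Schwann cells did so too, and the part of these tissues in the Fgfr3 values was not tested.

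Fgfrl1, a receptor that lacks the kinase domain, had a signal of 2417 in MyoD-null limb against 1958 in WT limb (0.30), and 1519 in the Myf5-labelled back array against 2048 in WT back (-0.43). Its second probe set also gave less in the back pair, at 593 against 1105 (-0.90), but the opposite sign in the limb pair, at 741 against 931 (-0.33). The limb direction of Fgfrl1 thus depends on the probe set, and the back direction does not.

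Fgfr2 had a signal of 4000 in MyoD-null limb against 3363 in WT limb (0.25), and 2030 in the Myf5-labelled back array against 2122 in WT back (-0.06). Its larger contrast was between body sites, with 3363 in WT limb against 2122 in WT back (0.66), and both limb arrays lay above both back arrays. The summed markers of epidermis and limb ectoderm had the same order. They were 13357 in MyoD-null limb, 11809 in WT limb, 9265 in the Myf5-labelled back array and 7035 in WT back. The summed bone markers also had this order, and the part of these tissues in the Fgfr2 values was not tested. A second probe set followed in the limb pair, at 314 against 190 (0.72), but gave only 0.11 between the WT arrays, and a dim one gave -0.94 in the limb pair. Both of the brighter Fgfr2 probe sets have names that mark shared probes, and without them the limb ratio of the gene turned to -0.94.

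Fgfr1, the receptor most widely found in mesenchyme, had a signal of 1374 in MyoD-null limb against 1056 in WT limb (0.38), and 1282 in the Myf5-labelled back array against 1177 in WT back (0.12). Its span over the 4 arrays was 1.30-fold, the narrowest of the receptors. Its other probe sets gave 0.08 and -0.11 in the limb pair and -0.65 and 0.10 in the back pair, so no direction was shared by all of them in either pair.

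**Figure D1:**
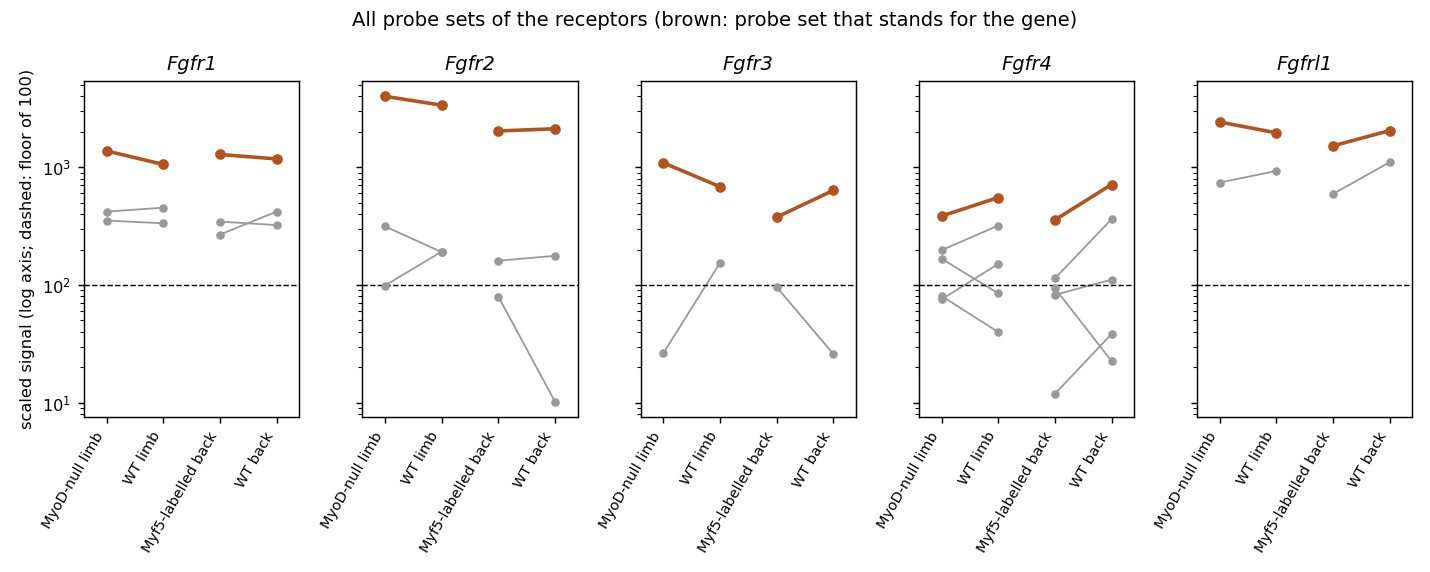
Scaled signal (log axis) of every probe set of the 5 receptor genes in the 4 arrays, with lines joining the mutant-labelled and WT array of the limb and of the back. Fgfr4 is lower in both mutant-labelled arrays in the probe set that stands for the gene (brown), at 385 against 553 and 357 against 713, while Fgfr3 is at 1091 against 684 in the limb pair and 377 against 635 in the back pair.

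Of the 8 feedback inhibitors, 6 stayed at 200 or more in all 4 arrays, with a median span of 1.47-fold between the highest and lowest array and 0 of 6 reaching 2-fold. Over all 9069 genes at 200 or more in every array, the median span was 1.45-fold, and 11.5% reached 2-fold. The span of these inhibitors was thus near that of genes in general.

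Dusp6, the ERK phosphatase, had a signal of 2466 in MyoD-null limb against 2038 in WT limb (0.28), and 1651 in the Myf5-labelled back array against 2079 in WT back (-0.33). Spred1 had 3714 in MyoD-null limb against 2932 in WT limb (0.34), and 2379 in the Myf5-labelled back array against 2820 in WT back (-0.25). For both genes the 2 WT arrays lay between the MyoD-null limb array, which was highest, and the Myf5-labelled back array, which was lowest. Between probe sets of one gene, log2 ratios had a median SD of 0.35 in the limb pair and 0.32 in the back pair, which covers probe noise and not embryos. Of these 4 ratios, the back ratio of Dusp6 was just above it and the others below it. The other probe sets of Spred1 went both ways in each pair.

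Spred2 had a signal of 1848 in MyoD-null limb against 1557 in WT limb (0.25), and 1594 in the Myf5-labelled back array against 1576 in WT back (0.02). Its span of 1.19-fold was the narrowest among the members at 200 or more in all arrays. Its dimmer probe sets went both ways, with one at 145 in MyoD-null limb against 261 in WT limb (-0.85) and lower in the back pair too (-0.65), and another at 0.41 in the limb pair and -0.57 in the back pair. Spry1 had 1672 in MyoD-null limb against 1473 in WT limb (0.18), and 1975 in the Myf5-labelled back array against 1962 in WT back (0.01). Spry1 was lower in WT limb than in WT back (-0.41), and both back arrays were above both limb arrays.

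Spry2 had a signal of 3270 in MyoD-null limb against 3829 in WT limb (-0.23), and 2633 in the Myf5-labelled back array against 3250 in WT back (-0.30). A dimmer probe set of Spry2 gave 179 against a WT limb value under the floor (0.84), and 104 against 253 in the back pair (-1.29). The probe sets of Spry2 therefore agreed in sign only in the back pair.

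Spry4 had a signal of 258 in MyoD-null limb against 396 in WT limb (-0.62), and 266 in the Myf5-labelled back array against 272 in WT back (-0.03). WT limb stood above the other arrays, which lay close together. Another Spry4 probe set also gave its highest signal in WT limb, at 33.7 in MyoD-null limb against 584 in WT limb, which is at least 5.84-fold lower, while another gave 165 against 104 (0.66). Spry3, read by a single probe set, had 148 in MyoD-null limb against 248 in WT limb (-0.74), and 49.7, under the floor, in the Myf5-labelled back array against 208 in WT back, which is at least 2.08-fold lower.

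Spred3 had the widest span of floored signals among the probe sets that stand for the members, at 3.23-fold. Its signal was 8.62, under the floor, in MyoD-null limb against 323 in WT limb, which is at least 3.23-fold lower. In the back pair the order was the opposite, with 319 in the Myf5-labelled back array against 55.4, under the floor, in WT back, at least 3.19-fold higher. WT limb over WT back was likewise at least 3.23-fold higher. A single probe set reads Spred3, and it was on in 1 array of each pair, so the values have no second reading on the array. The arrays where it was on also had the higher median signal over all probe sets. These medians were 153 in WT limb against 125 in MyoD-null limb, and 166 in the Myf5-labelled back array against 134 in WT back. Their 3 prime to 5 prime ratios of Gapdh were likewise the higher of each pair. The part of these array differences in the Spred3 values was not tested.

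Among the secreted ligands, Fgf9 had a signal of 700 in MyoD-null limb against 832 in WT limb (-0.25), and 614 in the Myf5-labelled back array against 666 in WT back (-0.12). Its second probe set had the same sign in both pairs (-0.68 and -0.13). Fgf9 is a ligand known to act on mesenchyme and cartilage, and its span over the 4 arrays was 1.35-fold, the narrowest of the ligands at 200 or more in every array.

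Fgf18, the cartilage and bone ligand, had a signal of 329 in MyoD-null limb against 621 in WT limb (-0.92), and 595 in the Myf5-labelled back array against 563 in WT back (0.08). MyoD-null limb stood alone below the 3 other arrays, which lay within 563 to 621. In that array the signal of Fgfr3 was the highest of the 4, as given above, so this ligand and this receptor differed from WT limb in opposite directions. Fgf18 has a single probe set.

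Fgf7, a ligand of the mesenchyme that acts on epithelium through Fgfr2, had a signal of 327 in MyoD-null limb against 219 in WT limb (0.58), and 379 in the Myf5-labelled back array against 641 in WT back (-0.76). WT limb over WT back was 219 against 641 (-1.55), the only call of a member in which both arrays were above the floor. A second Fgf7 probe set gave 138 in WT limb against 168 in WT back (-0.29), and 324 in the Myf5-labelled back array against 168 in WT back (0.95), opposite to the first. With the median over both probe sets the ratio of WT limb over WT back was -0.92 and no longer a call.

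Fgf6, the muscle ligand, had a signal of 151 in MyoD-null limb against 198 in WT limb (-0.40), and 257 in the Myf5-labelled back array against 164 in WT back (0.65). The summed muscle markers were lower in both mutant-labelled arrays, so in the back pair the signal of Fgf6 ran opposite to theirs. Fgf5, which is known to support motor neurons in culture, had 211 in MyoD-null limb against 25.7, under the floor, in WT limb, at least 2.11-fold higher. In the back pair it was 242 in the Myf5-labelled back array against 186 in WT back (0.38). WT limb was thus the array without a level of Fgf5, and a second Fgf5 probe set reached 100 in WT back alone, at 107. As a median over both probe sets the limb ratio was 0.54, short of a call.

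Fgf16 had a signal of 205 in the Myf5-labelled back array against 9.14, under the floor, in WT back, at least 2.05-fold higher, and was under the floor in both limb arrays, at 78.3 in MyoD-null limb and 11.2 in WT limb. A single probe set reads Fgf16, and its only signal above the floor was close to the minimum of 200 for a call, which it missed after quantile normalization (0.86).

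The FGF homologous factors, Fgf11 to Fgf14, stay inside the cell and are known as partners of voltage-gated sodium channels. Fgf13 had a signal of 955 in MyoD-null limb against 976 in WT limb (-0.03), and 568 in the Myf5-labelled back array against 736 in WT back (-0.37). Both limb arrays were above both back arrays. Fgf11 had 184 in MyoD-null limb against 171 in WT limb (0.10), and 340 in the Myf5-labelled back array against 236 in WT back (0.52), with both back arrays above both limb arrays.

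Fgf14 had a signal of 104 in MyoD-null limb against 186 in WT limb (-0.84), and 230 in the Myf5-labelled back array against 56.2, under the floor, in WT back, at least 2.30-fold higher. None of its 3 other probe sets reached 100 in a back array, so the call rests on 1 probe set whose name marks shared probes. The markers of neurons, cells known to use these factors, had summed signals of 1075 in MyoD-null limb and 1111 in WT limb, and 1960 in the Myf5-labelled back array and 2400 in WT back. Their part in the values of these genes was not tested.

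The remaining 13 members, all counted as ligands, were under 200 in all 4 arrays. Of these, 7 reached 100 in at least 1 array, with highest signals from 113 (Fgf12) to 190 (Fgf4), and the others were Fgf1, Fgf2, Fgf3, Fgf22 and Fgf23. The other 6 were under 100 in every array, namely Fgf8, Fgf10, Fgf15, Fgf17, Fgf20 and Fgf21. Fgf8 and Fgf10 are the ectodermal and mesenchymal ligands of early limb outgrowth, and their highest signals were 22.5 and 61.8. At this sensitivity no level was detectable for these 6, which does not show that they are absent.

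**Figure D2:**
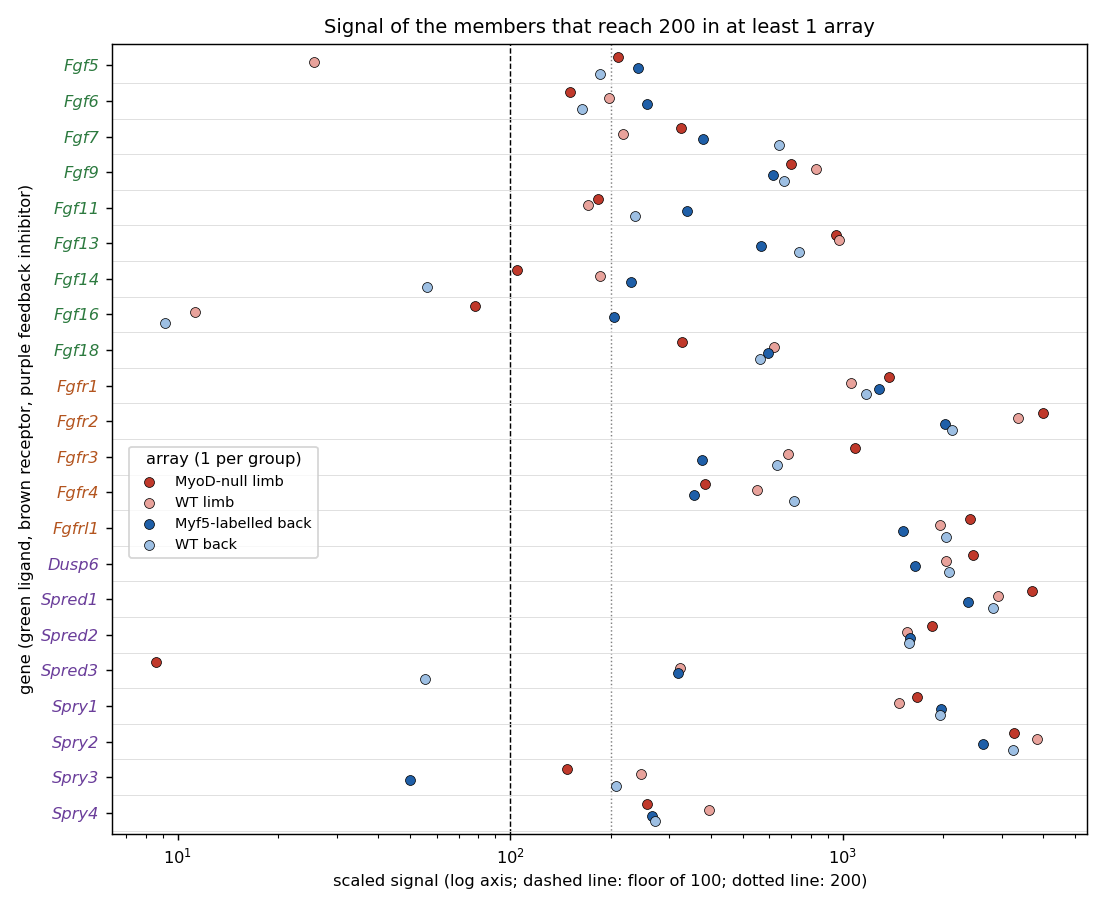
Scaled signal (log axis) of the 22 members that reach 200 in at least 1 array, with 1 point per array, the floor of 100 as a dashed line and 200 as a dotted line. Receptors and most feedback inhibitors keep to the right of both lines in all 4 arrays, whereas Fgf5, Fgf14, Fgf16, Spred3 and Spry3 have 1 or more arrays under the floor.

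Counts of called members were small in each comparison. In MyoD-null limb against WT limb, 18 members reached 200 in the brighter array. Of these, 1 (Fgf5, 5.56%) was at least 2-fold higher, beside 2.94% of the 11345 genes that could be called, and 1 (Spred3, 5.56%) was at least 2-fold lower, beside 6.64%. The median log2 ratio of the 27 members at 100 or more in the brighter array was -0.03, beside -0.05 over all such genes, with 13 members above 0 and 14 below. Ligands, with the intracellular Fgf11 to Fgf14 included, had a median of -0.32 (9 of 14 below 0). Receptors had a median of 0.30 (4 of 5 above 0) and feedback inhibitors a median of -0.02 (4 of 8 above 0).

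In the Myf5-labelled back array against WT back, 22 members reached 200 in the brighter array. Of these, 3 (Fgf14, Fgf16 and Spred3, 13.6%) were at least 2-fold higher, beside 6.95% of 11634 genes, and 1 (Spry3, 4.55%) was at least 2-fold lower, beside 3.13%. The median of 29 members was -0.03, beside 0.05 over all genes. Ligands, again with Fgf11 to Fgf14 included, had a median of 0.05 (10 of 16 above 0). Receptors had a median of -0.43 (4 of 5 below 0) and feedback inhibitors a median of -0.14 (5 of 8 below 0). In WT limb against WT back, 1 of 18 members (Spred3, 5.56%) was at least 2-fold higher, beside 6.76% of 11445 genes, and 1 (Fgf7, 5.56%) at least 2-fold lower, beside 4.46%, with a median of 0.14 for 25 members beside 0.04 for all genes.

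Of the 8 calls in the 3 comparisons, 7 were bounds, with 1 array under the floor and the brighter one between 205 and 323, and Spred3 made 3 of the 8. With a floor of 200 none of these 7 could be a call, because their brighter signals are too close to that floor. The call of Fgf7 in WT limb over WT back stayed, but both of its signals were above 200. Both outcomes were thus fixed in advance and say nothing about how reliable the calls are. A difference of 1 or 2 calls from the background share is not a result about the members. The splits of all genes also depended on scaling. In the limb pair 30.7% of all calls were higher, and 45.6% after quantile normalization, and in the back pair 68.9% were higher, and 50.1% after quantile normalization.

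**Figure D3:**
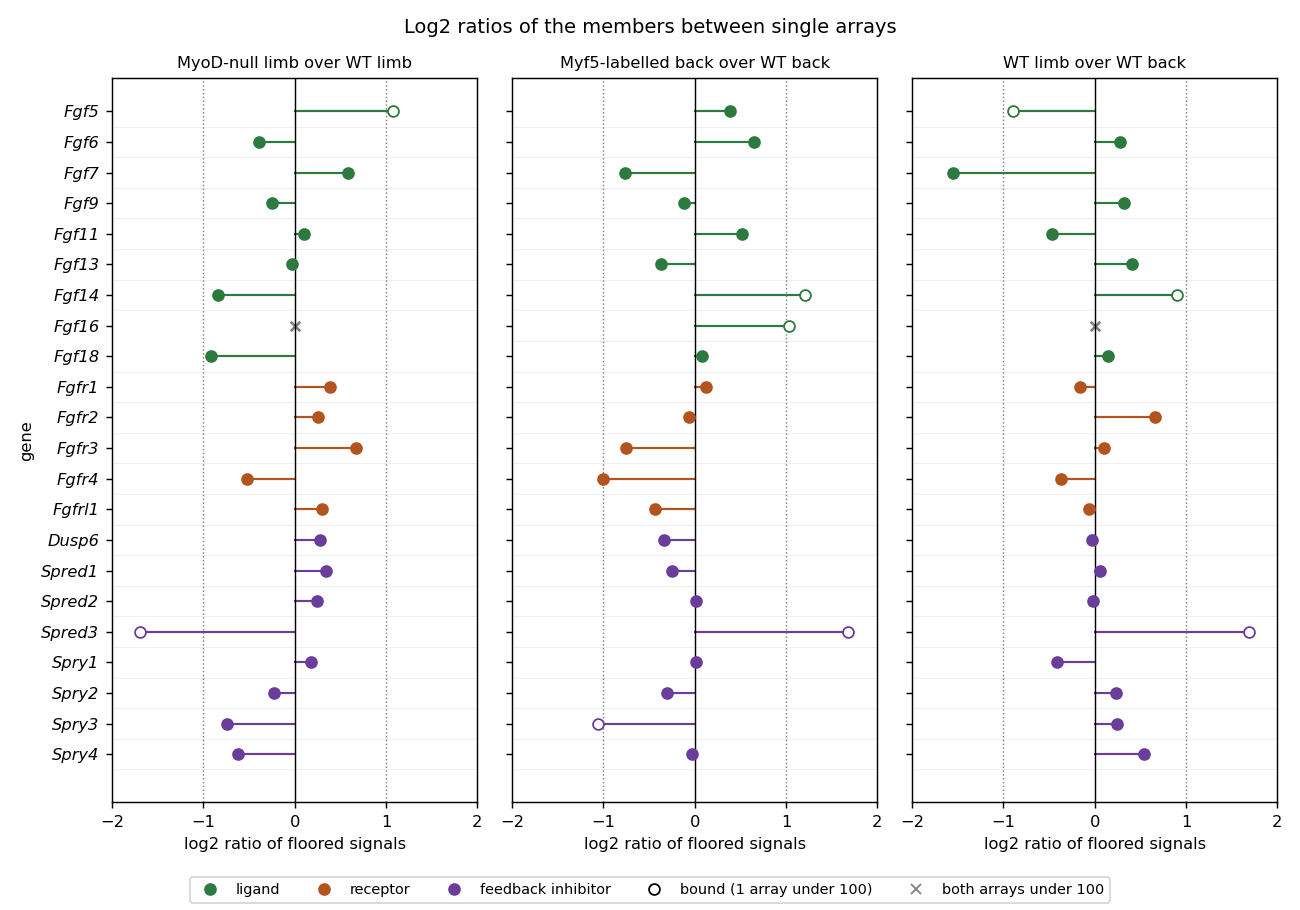
Log2 ratio of floored signals for the same 22 members in MyoD-null limb over WT limb, the Myf5-labelled back array over WT back, and WT limb over WT back, with dotted lines at 2-fold and open circles where 1 array was under the floor. Receptors lie above 0 in the limb pair except Fgfr4 (-0.52) and below 0 in the back pair except Fgfr1 (0.12).

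**Figure D4:**
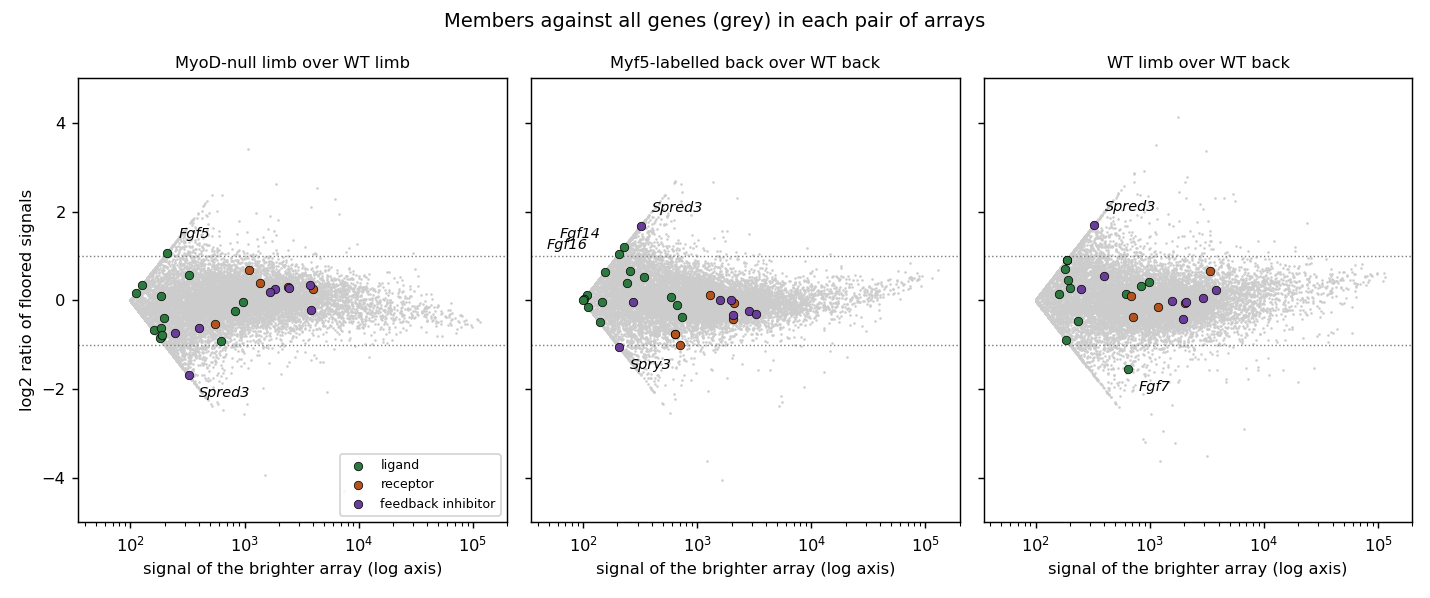
Log2 ratio of floored signals against the signal of the brighter array (log axis) for all genes at 100 or more in the brighter array (grey) and the members (coloured by role), with called members named. Members lie within the cloud of all genes, and the called ones except Fgf7 sit on its edge, where the dimmer array is at the floor.

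The 2 mutant pairs share no array, so the direction of each member could be set side by side. Of the 17 members at 100 or more in all 4 arrays, 6 (35.3%) were higher in MyoD-null limb and lower in the Myf5-labelled back array, each against its own WT array, beside 29.6% of 10912 genes. They were Fgf7, Fgfr2, Fgfr3, Fgfrl1, Dusp6 and Spred1. Lower in both were 5 (29.4%, beside 20.7%), namely Fgf9, Fgf13, Fgfr4, Spry2 and Spry4. Higher in both were 4 (23.5%, beside 20.9%), namely Fgf11, Fgfr1, Spred2 and Spry1, and 2 (Fgf6 and Fgf18, 11.8%, beside 28.8%) were lower in the limb pair and higher in the back pair. These counts include ratios near 0, do not weigh their size and use only the brightest probe set of each gene. Signs could be compared between a gene's probe sets above the floor for 10 members in the limb pair and 8 in the back pair. They were mixed for 7 of the 10, namely Fgf7, Fgf13, Fgfr1, Fgfrl1, Spred1, Spred2 and Spry4. In the back pair they were mixed for 3 of the 8, namely Fgf7, Fgfr1 and Spred1. Dusp6 has a single probe set.

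Other genes of the pathway were read from lists of known components. Of all genes that could be called, 2.94% were higher and 6.64% lower in the limb pair, and 6.95% and 3.13% in the back pair. In WT limb over WT back the shares were 6.76% and 4.46%. With lists this short, 0 or 1 call is not a result about a list. Of 10 co-receptors and binding proteins, 6 reached 200 in the brighter array of the limb pair and 0 were called. In the back pair 8 reached 200 and 1 was called, namely Klb, the co-receptor of the endocrine ligands Fgf15 and Fgf21. Klb was 230 in the Myf5-labelled back array against 19.6, under the floor, in WT back, at least 2.30-fold higher. In the limb pair Klb was 185 in MyoD-null limb against 21.4, under the floor, in WT limb, which was too dim for a call. Kl, the co-receptor of Fgf23, was under 100 in all 4 arrays and Klb in both WT arrays.

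Of 21 heparan sulfate proteoglycans and enzymes, 19 reached 200 in the brighter array of the limb pair and 0 were called there. In the back pair 20 reached 200, and in WT limb over WT back 19, with 1 called in each. Glypican 2 (Gpc2) was 239 in the Myf5-labelled back array against 109 in WT back (1.13). Syndecan 1 (Sdc1) was 8826 in WT limb against 3503 in WT back (1.33), with 1.05 and 0.77 in its other probe sets. The summed markers of epidermis and limb ectoderm, given with Fgfr2, were also higher in WT limb, and their part in the Sdc1 values was not tested. Glypican 6 (Gpc6) came close to a call in the limb pair, at 1167 in MyoD-null limb against 585 in WT limb (0.99), although its other probe sets went both ways. Hs3st1, a heparan sulfate sulfotransferase read by a single probe set, came as close in the other direction, at 194 in MyoD-null limb against 383 in WT limb (-0.98).

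Of the 15 adaptors and ERK cascade genes analysed, 0 were called in any of the 3 comparisons, and all were above the floor in every array. Their median log2 ratio was 0.16 in the limb pair and -0.11 in the back pair. Frs3, an adaptor that docks on FGF receptors, had the largest ratio of the limb pair, at 323 in MyoD-null limb against 593 in WT limb (-0.88), and Map2k1, the kinase that activates ERK, the largest of the back pair, at 2389 in the Myf5-labelled back array against 3360 in WT back (-0.49).

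Of 13 ETS factors and immediate targets of ERK, 9 reached 200 in the brighter array of the limb pair. In the back pair 10 did, and in WT limb over WT back 9, and 0 were called in any of the 3 comparisons. Etv5, a transcription factor that FGF signalling switches on, was 683 in MyoD-null limb against 618 in WT limb (0.14), and 510 in the Myf5-labelled back array against 711 in WT back (-0.48), the signs of Dusp6 and Spred1. Other probe sets of Etv5 gave -0.70 and -0.70 in the limb pair and 0.17 and -0.75 in the back pair. Fos was 361 in MyoD-null limb against 183 in WT limb (0.98), and Etv4, Fosl1 and Junb were under 100 in all 4 arrays. Egr1 went the other way in the limb pair, at 1150 against 1614 (-0.49). Ier2 had the largest ratio of the back pair, at 982 in the Myf5-labelled back array against 680 in WT back (0.53). The list median was 0.08 in the limb pair (5 above 0, 4 below) and 0.02 in the back pair (6 above 0, 4 below).

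Of 13 other feedback inhibitors, 12 reached 200 in the brighter array of each mutant pair, and 0 were called in either. In the limb pair 6 of 12 were above 0 and 6 below, with a median of -0.06 beside -0.05 for all genes. In the back pair 9 of 12 were below 0, with a median of -0.32 beside 0.05 for all genes. Dusp4, a phosphatase of ERK in the nucleus, was 254 in the Myf5-labelled back array against 501 in WT back (-0.98), and 335 in MyoD-null limb against 318 in WT limb (0.07). Il17rd, an inhibitor of FGF receptors, was 1484 in MyoD-null limb against 1958 in WT limb (-0.40) and 1617 in the Myf5-labelled back array against 2156 in WT back (-0.42). A dimmer probe set of Il17rd gave -1.41 in the limb pair and 1.5 in the back pair. Dusp9 was 632 in WT limb against 304 in WT back (1.05), with 0.57 and 0.58 in its other probe sets.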

How the data were processed

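RNA was isolated with Trizol and 6 µg went into biotinylated cRNA, per the labels' protocols. The values that the authors deposited are linear signal intensities per probe set; the submitters' processing notes name MAS5 without a version. The 2% trimmed means of the deposited columns were 1479, 1478, 1477 and 1478 in MyoD-null limb, WT limb, the Myf5-labelled back array and WT back. The arrays had thus been brought to one trimmed mean, but not to one level at every signal. In the same order, the median scaled signals were 125, 153, 166 and 134. The shares of probe sets at 100 or more were 56.0%, 61.5%, 63.7% and 57.9%. Most calls of members lie at this low end of the signals. Detection calls and scanner files were not used here.

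Each array was rescaled to a 2% trimmed mean of 500, leaving out 64 control probe sets, signals were floored at 100, and log2 ratios were taken (Python 3.11.15, pandas 2.3.3, SciPy 1.17.1, statsmodels 0.14.6). Gene names came from the platform annotation; 932 probe sets with several symbols and 9211 without one were not used. All 35 member symbols matched a RefSeq gene table by Entrez number. Each gene was represented by its brightest probe set on average over the arrays (mean of log2 signals). Members reaching 200 in at least 1 array are given in full, the others by range. Pathway genes named are those called, or the 1 or 2 with the largest ratios, and a few with a known role whose choice followed their values. Pathway genes that no probe set names alone were not analysed here. Precision is limited by the number of arrays. The members and lists were chosen with earlier results of these data known. The steps were tested on simulated data. There were 8 alternatives to these choices, all listed in the closing section.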

Additional observations from a re-analysis of the deposited data

How the results depend on the processing

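Of 64 ratios of members that reach 200, 62 kept their sign without rescaling, with quantile normalization and with loess in each pair. The others were Dusp6 and Spred2 in WT limb over WT back, both near 0. Leaving out rescaling could hardly turn a sign, because the deposited arrays were already at one trimmed mean. What these counts say about scaling thus rests on quantile normalization and loess. Over all 8 alternatives 11 ratios turned sign, none of them called. With the median over all probe sets these were 6 (Fgf13, Fgfrl1 and Spry2 in the limb pair, Fgf7 in the back pair, Spred1 and Spry2 in WT limb over WT back), and without shared-probe probe sets 3 (Fgfr1 and Fgfr2 in the limb pair, Fgfr1 in WT limb over WT back). Without rescaling, where the floor lies lower on the deposited scale, the members at least 2-fold higher and lower were 3 and 4 in the limb pair, 7 and 4 in the back pair, and 5 and 2 in WT limb over WT back. With a floor of 200 they were 0 and 0, 0 and 0, and 0 and 1. With the median over all probe sets, 0 were higher in the limb pair and 0 lower in WT limb over WT back. Quantile normalization and loess each gave 2 lower in the back pair. Of the 8 alternatives, Fgf5 kept its call in 6, Fgf14 in 5, Fgf16 in 6, and Spry3, Fgf7 and each of the 3 calls of Spred3 in 7. Some of these outcomes were fixed in advance. Leaving out rescaling and a floor of 50 both lower the floor, which enlarges a bound. For Spred3, Spry3 and Fgf16, each read by a single probe set, the 2 alternatives that change the probe sets repeat the main value. The numbers of kept calls are therefore no measure of how reliable a call is. A higher floor removes bounds by its construction; the cause of the other moves was not tested. A floor of 50, a pseudocount of 100 and leaving out shared-probe probe sets moved no count by over 1.5 times. No paired analysis was possible because each group has 1 array. Signals near the floor limit the calls, as do the 3 prime lean of the arrays and the single probe sets of Spred3, Spry3 and Fgf16.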
